A study of Homo sapiens with 4 samples.

Results

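The genes described here encode the beta and FXYD subunits of the sodium pump and the NKAIN proteins, which bind it. They are the rows of the deposited table whose symbol is ATP1B1, ATP1B2, ATP1B3, FXYD2, FXYD3, NKAIN1, NKAIN2 or NKAIN4. Of these 8 genes, 7 have a row among the 30863 genes of the table, and FXYD3 was not analysed here. RNA was taken from HepG2, a long-established line of human liver tumour cells, labelled as hepatoblastoma and as WT in genotype. Control cells received the solvent DMSO, and the other cells received AMF, which the series title spells out as amentoflavone, a plant biflavonoid. All cells were collected at 48 h, and there are 2 libraries (replicates 1 and 2) per group. The labels conflict, with 90 µM AMF in the treatment protocol and 80 µM Tub B in the design text. The name AMF is used below as the sample titles use it, without settling the compound or the dose. Whether the replicates were separate cultures is not stated, and p-values measure only the spread among libraries, which may be technical.

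The sodium pump is a membrane ATPase that moves sodium out of the cell and potassium in. Its alpha subunit carries the ATP and ion sites, its beta subunit is a glycoprotein that the alpha subunit needs to fold and reach the surface, and a small FXYD protein tunes the affinity for ions. NKAIN proteins are small membrane proteins that interact with the beta 1 subunit and are known mainly from nervous tissue. In hepatocytes the pump sets the sodium gradient that drives the uptake of bile acids and amino acids.

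Values are normalized counts, the reads of a gene divided by the size factor of its library. Changes are AMF minus DMSO on the log2(normalized count + 1) scale, with the standard error (SE) of the fit by limma over all genes. Libraries held 24226586 to 26966210 reads, and libraries of 1 group were distinct, with a chi-square of 4.02 (DMSO) and 2.27 (AMF) per degree of freedom where sampling of reads alone gives about 1. Of the 8 hepatocyte markers checked, from ALB to HNF4A, all 8 averaged 10 normalized counts or more, and their summed level was 456569 to 468300 in DMSO and 345838 to 364887 in AMF. Most of that difference was in APOB, with 208340 and 211320 normalized counts in DMSO against 135488 and 133706 in AMF, and the markers did not move together. HNF4A, a transcription factor of hepatocytes, was higher in AMF, at 13071 and 12569 against 7044 and 7053, and ALB overlapped between the groups. Mitochondrial genes took 7.73% and 7.69% of the DMSO totals and 9.53% and 9.61% of the AMF totals, and 23929 and 24108 genes had at least 1 read in DMSO against 25985 and 25632 in AMF. The part of these differences in the results was not tested. A level in RNA from whole cultures does not separate the number of cells of a type from the RNA each holds. The genes were chosen from the comparison of AMF with DMSO itself, so their changes are given as a description with no test.

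One member, NKAIN1, stood far apart from the others in size of change. It had 7.0 and 5.13 normalized counts in DMSO replicates 1 and 2 and 933 and 1068 in AMF replicates 1 and 2. The DMSO values rest on 7 and 5 reads and the AMF values on 1005 and 1037 reads. Both AMF libraries were high and both DMSO libraries were near the limit of detection, with no overlap. The mean was 6.07 ± 1.32 in DMSO and 1000.7 ± 95.5 in AMF (SD, n = 2 per group), for a log2 change of 7.16 with SE 0.204. The ratio of reads was 164, with a 95% exact binomial interval of 93.7 to 318 that covers counting error only. By size of change NKAIN1 ranked 7 of the 23828 genes tested. On the deposited log2 scale, which compresses low values, its change was 3.69. Exons of NKAIN1 overlap those of no other gene in GENCODE release 29.

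The stretch of DNA just before the NKAIN1 start is printed because this gene changed from near silence to a moderate level. It covers chr1:31239888-31240137 on the minus strand of GRCh38.p14, the 250 bases before the start given by RefSeq, and 70.4% of its bases are G or C.
NKAIN1: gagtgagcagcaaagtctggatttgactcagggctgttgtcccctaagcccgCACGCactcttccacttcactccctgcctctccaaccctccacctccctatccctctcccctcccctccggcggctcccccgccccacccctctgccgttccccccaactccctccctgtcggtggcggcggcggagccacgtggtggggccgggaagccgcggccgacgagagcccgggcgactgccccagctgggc
Capitals mark a match to GCGTG, the core of the element bound by the aryl hydrocarbon receptor, here read from the opposite strand as CACGC, whose first base lies 198 bases before the start. Windows of the same length were found for 6 of the 8 members, FXYD2 and NKAIN4 being the exceptions. With both strands searched, GCGTG was present in 4 of the 6, namely ATP1B2, ATP1B3, NKAIN1 and NKAIN2, and in 32.2% of all 35116 windows. The GC box GGGCGG was present in 3 of the 6, namely ATP1B1, ATP1B3 and NKAIN1, and in 42.6% of all windows. A match is a description of the letters and no evidence of binding.

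The genes whose pattern over the 4 libraries was closest to that of NKAIN1 were RP11-341D18.4, CYP1A1 and LIM2. Closeness is the Euclidean distance between log2(normalized count + 1) values, each centred on the gene's mean, over the 11136 other genes whose mean reached 100 normalized counts. RP11-341D18.4, a name without a match in the reference gene tables, had 1.0 and 1.03 normalized counts in DMSO and 305 and 274 in AMF (distance 0.378). The cytochrome P450 gene CYP1A1 had 185 and 206 in DMSO and 44186 and 42857 in AMF (distance 0.760). The lens membrane protein gene LIM2 had 0 and 1.03 in DMSO and 245 and 238 in AMF (distance 1.04). RP11-341D18.4 and LIM2 reached the mean of 100 through their AMF libraries alone, as NKAIN1 did. With 0 or 1 read in each DMSO library, the distances of RP11-341D18.4 and LIM2 depend on the pseudocount of 1. Over 2 groups of 2 libraries the distance mostly follows the change between groups. By size of change RP11-341D18.4, CYP1A1 and LIM2 ranked 6, 2 and 4, so closeness adds little to that ranking and nothing more is read from it.

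The other NKAIN members stayed near the floor in both groups. NKAIN2 had 2.0 and 0 normalized counts in DMSO and 2.79 and 0 in AMF, from 2 and 3 reads per group in all. In each group the reads came from replicate 1 alone, and the groups overlap. The ratio of its reads was 1.45, with a counting interval of 0.166 to 17.3. NKAIN4 had 3.0 and 2.05 normalized counts in DMSO and 1.86 and 1.03 in AMF, from 5 and 3 reads. DMSO replicate 2 and AMF replicate 1 had 2 reads each, so the groups are apart only through the size factors, and the counting interval of the ratio (0.579) ran from 0.0898 to 2.97. A small or moderate difference in NKAIN2 or NKAIN4 was not detectable at this depth. Both counting intervals end below that of NKAIN1, which starts at 93.7. NKAIN3, which is not a member, had 0 reads in DMSO and 2 reads in AMF over both libraries of each group. Exons of NKAIN4 overlap those of FLJ16779 on the opposite strand, and these libraries do not keep strand.

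**Figure D1:**
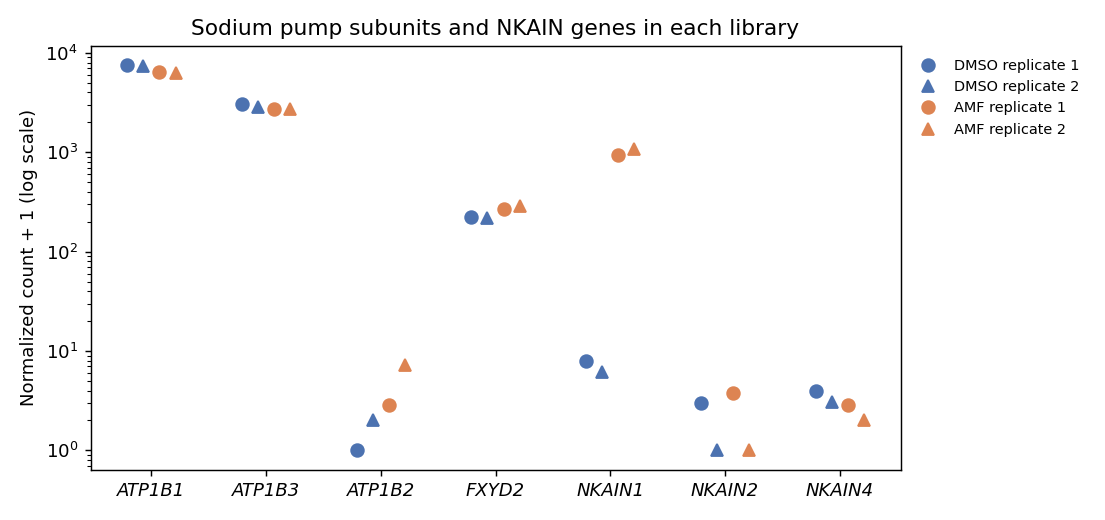
Normalized count plus 1 (log axis) of each of the 7 genes with a row, by library: blue for DMSO, orange for AMF, circles for replicate 1 and triangles for replicate 2. NKAIN1 moves from 7.0 and 5.13 normalized counts in DMSO to 933 and 1068 in AMF, while ATP1B1 and ATP1B3 differ little between groups and ATP1B2, NKAIN2 and NKAIN4 rest on a few reads.

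Among the beta subunits, ATP1B1 and ATP1B3 were abundant and lower in AMF by a small amount. ATP1B1, the beta 1 chain of most epithelial pumps, had 7528 and 7318 normalized counts in DMSO and 6358 and 6346 in AMF. Both AMF libraries lay below both DMSO libraries, and the 2 AMF values differed from each other by less than the 2 DMSO values did. The means were 7423 ± 149 in DMSO and 6352 ± 8.57 in AMF (SD, n = 2 per group), for a log2 change of -0.22 with SE 0.0414. Of the genes tested, 66.9% had a larger absolute change. Exons of ATP1B1 overlap those of NME7 on the opposite strand.

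ATP1B3, the beta 3 chain, had 3089 and 2876 normalized counts in DMSO and 2745 and 2696 in AMF. The AMF libraries again lay below the DMSO libraries, but the gap between the lower DMSO library and the higher AMF library was smaller than the gap between the DMSO libraries. The means were 2982 ± 151 in DMSO and 2720.4 ± 34.6 in AMF, for a log2 change of -0.13 with SE 0.0526. Without 1 library at a time the change ran from -0.18 to -0.08. In size, 79.9% of the genes tested changed by more, and ATP1B3 was not called (limma adjusted p = 0.0732).

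ATP1B2, the beta 2 chain known from glia, had 0 and 1.03 normalized counts in DMSO and 1.86 and 6.18 in AMF, from 0, 1, 2 and 6 reads. The AMF libraries were both above the DMSO libraries and differed from each other by more than the lower of them did from DMSO. The ratio of reads was 7.71, with a counting interval of 1.03 to 342. The gene reached the minimum mean of 1 normalized count for testing through its AMF libraries, since its mean was 0.513 in DMSO and 4.02 in AMF. NKAIN2 did so as well, with a mean just under 1 in DMSO and of 1.39 in AMF, which makes 2 members in all.

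Levels of different subunits were compared per kilobase of exon in GENCODE release 29, where the length counts all annotated exons of a gene together. In DMSO, ATP1B1 had a mean of 2506 normalized counts per kilobase and ATP1B3 had 1154, and in AMF they had 2144 and 1053. ATP1B1 made up 68.0% and 68.9% of the summed beta level in DMSO replicates 1 and 2 and 66.9% and 67.2% in AMF replicates 1 and 2. ATP1B1 was thus the major beta transcript in each of the 4 libraries, and its share was nearly the same in both groups.

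**Figure D2:**
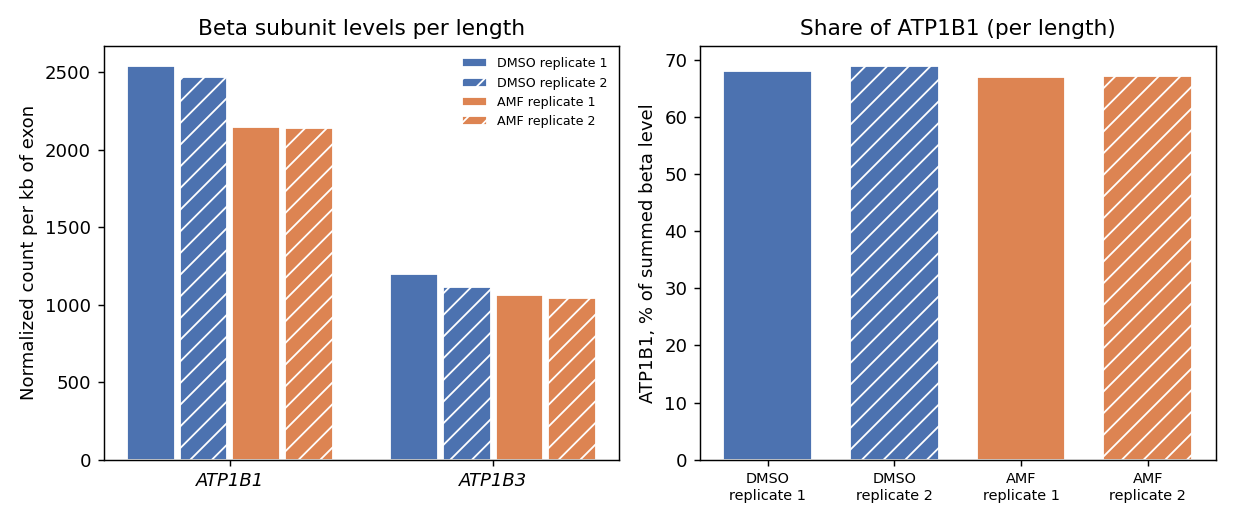
Left, normalized counts per kilobase of exon for ATP1B1 and ATP1B3, and right, ATP1B1 as a percentage of the summed beta level per kilobase, with 1 bar per library (blue DMSO, orange AMF, hatched replicate 2). Both genes are lower in the AMF libraries, and the share of ATP1B1 runs from 66.9% to 68.9% over the 4 libraries.

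FXYD2, the gamma subunit best known from the kidney tubule, was higher in AMF. It had 220 and 217 normalized counts in DMSO and 268 and 291 in AMF. The 2 DMSO libraries were nearly equal, and both AMF libraries lay above them. The means were 218 ± 2.33 in DMSO and 279 ± 15.7 in AMF (SD, n = 2 per group), for a log2 change of 0.35 with SE 0.113. Without 1 library at a time the change ran from 0.30 to 0.41. In size, 52.5% of the genes tested changed by more. Exons of FXYD2 overlap those of FXYD6-FXYD2, a gene that reads through both loci on the same strand, and of AP000757.2 on the opposite strand, so its reads may include some of a neighbour.

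Of the 7 members with a row, all 7 reached a mean of 1 normalized count and 4 reached a mean of 10. At a limma adjusted p of 0.05 the fit called 2 higher (FXYD2 and NKAIN1), 1 lower (ATP1B1) and 4 neither. Of all 23828 genes, 31.8% were called, 15.6% higher and 16.2% lower. Among the members called, FXYD2 lay nearest the threshold (limma adjusted p = 0.0271). The libraries of the 2 groups did not overlap for 6 of the 7, NKAIN2 being the exception, against 63.4% of all genes tested. AMF lay above DMSO for 3 members, against 33.8% of all genes, and below it for 3, against 29.7%. Since the members were chosen from these values, nothing is read from either count.

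Other genes of the pump were counted from a list of further subunits. Of the 8 reported here, 6 had a row and 2 were tested, of which 1 rose and 1 did not pass. The rise was that of FXYD5, or dysadherin, a FXYD protein that also affects cell adhesion. FXYD5 had 19.99 and 20.5 normalized counts in DMSO and 79.9 and 72.1 in AMF, with both AMF libraries far above both DMSO libraries. Its log2 change was 1.85 (SE 0.269, limma adjusted p = 8.31e-05). The alpha 4 gene ATP1A4 was tested on 1 read in DMSO and 6 reads in AMF, summed per group (log2 change 1.42, limma adjusted p = 0.248). FXYD1, FXYD4, FXYD6 and NKAIN3 had 0 to 3 reads per group and were not tested, and ATP1B4 and FXYD7 were not analysed here.

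Per kilobase of exon, FXYD2 lay below ATP1B1 and ATP1B3, at 39.0 normalized counts per kilobase in DMSO and 49.9 in AMF. NKAIN1 went from 2.03 normalized counts per kilobase in DMSO to 335 in AMF, below ATP1B3. On this measure NKAIN1 was above FXYD2 in AMF, but all annotated exons add to 5595 bases for FXYD2 and 2987 for NKAIN1. Where the transcripts present are shorter, the level per kilobase is understated, so the order of FXYD2 and NKAIN1 is not settled.

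The routes by which sodium enters a cell and the kinases that tune them were counted as the surroundings of the pump. Of 32 genes of sodium entry and exchange, 23 were tested, and 9 rose, 3 fell and 11 did not pass. The median log2 change was 0.35 beside 0.04 over all genes tested. SLC10A1, NALCN, SLC4A4 and SLC9A2 averaged under 1 normalized count in DMSO and reached the minimum mean for testing through AMF. SLC34A2 reached it through DMSO alone. These genes are named for the filter and not for their size of change, and nothing is read from the median. Among the genes that averaged 10 normalized counts or more, the rises were largest in SLC9A3, a sodium-proton exchanger of epithelia (2.03, SE 0.271, limma adjusted p = 3.98e-05), SCNN1A, the alpha subunit of the epithelial sodium channel, and SLC4A7, a sodium-bicarbonate cotransporter. SCNN1A had 599 ± 6.29 normalized counts in DMSO and 1442 ± 93.9 in AMF (SD, n = 2 per group), with a log2 change of 1.26, and SLC4A7 rose by 0.99. Other subunits of the epithelial sodium channel differed from SCNN1A. SCNN1D rose by 0.85 (limma adjusted p = 1.36e-05), and SCNN1B and SCNN1G had 0 to 2 reads per group and were not tested. SLC9A2, another sodium-proton exchanger, rose by 2.35 (limma adjusted p = 0.0308) at a mean of only 4.42, from 2 reads in DMSO and 16 in AMF, and is named here after its values were seen. The fall was by far largest in SLC12A3, the thiazide-sensitive sodium chloride cotransporter of the kidney. SLC12A3 had 219 and 134 normalized counts in DMSO and 3.71 and 4.12 in AMF, and its log2 change was -5.13 (SE 0.341, limma adjusted p = 3.99e-08). The DMSO libraries differed from each other, but both lay far above AMF. SLC12A2, the sodium-potassium-chloride cotransporter, fell by 0.64, and SLC8B1, the mitochondrial sodium-calcium exchanger, fell by 0.31 (limma adjusted p = 0.0118). The change of SLC8B1 was -0.34 and -0.29 without DMSO replicates 1 and 2, and limma did not call it there (adjusted p = 0.14 and 0.187).

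Of 27 regulators of the pump and of sodium transport, 26 were tested, and 6 rose, 9 fell and 11 did not pass, with a median log2 change of -0.02. The kinases SGK1 and SGK2, both of which act on sodium channels and the pump, moved in opposite directions. SGK1 had 704 and 691 normalized counts in DMSO and 176 and 183 in AMF, and its log2 change was -1.95 (SE 0.0959, limma adjusted p = 1.88e-09). SGK2 had 449 and 466 in DMSO and 1089 and 1168 in AMF, and its log2 change was 1.30 (SE 0.0755, limma adjusted p = 1.03e-08). SGK3, of the same family, overlapped between the groups and was not called (log2 change 0.16, limma adjusted p = 0.263). The kinases WNK4 (-1.09) and WNK3 (-1.26), which control the SLC12 cotransporters, fell. WNK1 (-0.08) and WNK2 (-0.0011), of the same family and more abundant here, were not called (limma adjusted p = 0.134 and 0.995). The fall of WNK3 was close to the threshold (limma adjusted p = 0.0489) and rests on 23.2 ± 5.29 normalized counts in DMSO and 9.43 ± 4.14 in AMF. The arrestin-domain adaptor ARRDC3 rose by 0.90 and the spectrin SPTBN1, part of the membrane skeleton that anchors the pump, by 0.40.

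Other P-type ATPases, which move ions by the same cycle of phosphorylation as the pump, changed in both directions. Of 19 listed, 14 were tested, and 5 rose, 3 fell and 6 did not pass, with a median log2 change of 0.07. ATP2C2, a Golgi pump for calcium and manganese, rose by 2.42 from 3.01 ± 2.81 normalized counts in DMSO to 17.6 ± 1.29 in AMF (SD, n = 2 per group). Its change was 3.20 without DMSO replicate 1 (limma adjusted p = 0.0398) and 1.63 without DMSO replicate 2 (limma adjusted p = 0.103), and voom, another limma model, did not call it without any of the 4 libraries in turn (adjusted p from 0.0854 to 0.158). The endoplasmic reticulum calcium pumps ATP2A3 (0.57) and ATP2A1 (0.42) rose as well, at means of 166 and 724 normalized counts. ATP2A2, of the same family and far more abundant here (mean 10349), rose by 0.29 (limma adjusted p = 5.35e-05). The plasma membrane calcium pumps ATP2B2 (-0.93) and ATP2B1 (-0.53) and the copper pump ATP7B (-0.22) fell.

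Over these 4 lists, 36 of 65 tested genes passed, 21 higher and 15 lower, which is 55.4% beside 31.8% of all genes tested. Genes with higher counts pass more often. Where the mean reached 10 normalized counts, 35 of 55 list genes passed (63.6%), beside 45.2% of all such genes. Since the lists were chosen with earlier results of these data known, nothing is read from these shares. Of the 19 genes named from the lists by size of change, limma called 14 and 12 without DMSO replicates 1 and 2 and 0 without either AMF replicate, where voom called 8 and 9, and all 19 kept their direction throughout. SLC8B1, WNK3, ATP2A3, ATP2B2 and ATP7B lost their call without either DMSO replicate, and ATP2C2 and ATP2A1 without DMSO replicate 2 alone. Exons of SLC9A3, SCNN1A, SGK2, WNK4, ARRDC3, SPTBN1, ATP2C2, ATP2A1 and ATP2B1 overlap those of other genes in GENCODE.

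**Figure D3:**
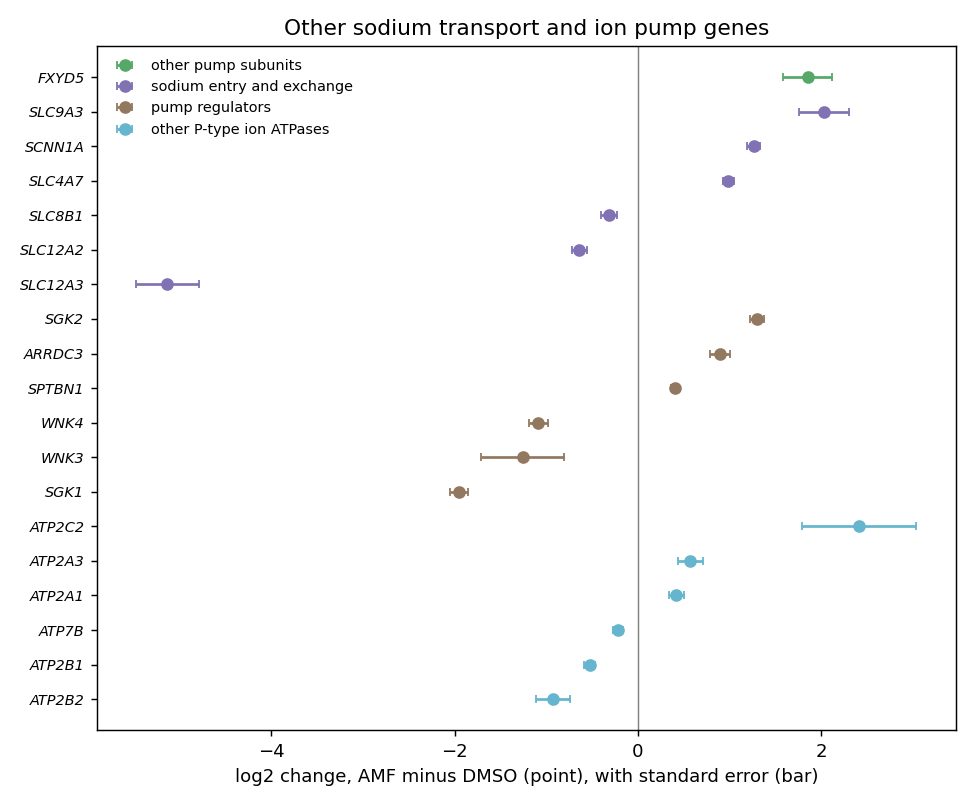
Points are log2 changes (AMF minus DMSO) of the 3 largest rises and the 3 largest falls of each list among called genes that averaged 10 normalized counts or more, bars are standard errors, and colours mark the lists. Changes run from -5.13 for SLC12A3 to 2.42 for ATP2C2, and SGK1 and SGK2 lie on opposite sides of 0.

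NKAIN genes and FXYD2 are better known from brain and kidney, so markers of those tissues were measured beside them. Of 8 neuron markers, 7 had a row and 3 averaged 10 normalized counts or more, with a summed level of 135 to 147 in DMSO and 159 to 196 in AMF. The markers on it went different ways. SYN1, which made up most of the sum in DMSO, had 109.96 and 107 normalized counts in DMSO and 85.4 and 92.7 in AMF, and SNAP25 had 9.996 and 11.3 in DMSO and 10.2 and 0 in AMF. GAD1 had 4.0 and 5.13 in DMSO and 55.7 and 35.0 in AMF, and RBFOX3 had 2.0 and 3.08 in DMSO and 12.1 and 10.3 in AMF. SLC17A7 had 7.0 and 12.3 in DMSO and 22.3 and 15.5 in AMF. SYT1 overlapped between the groups, with 2.0 and 8.21 in DMSO and 10.2 and 3.09 in AMF. NEFL was at 0 in 3 libraries and at 2.06 in AMF replicate 2. Of 8 kidney tubule markers, 4 had a row and SLC12A3 alone reached a mean of 10, with a summed level of 138 to 220 in DMSO and 4.12 to 4.64 in AMF. That sum is nearly all SLC12A3, whose fall is given above. SLC12A1, SLC34A1 and CALB1 had at most 2.05 normalized counts in any library. Fibroblast markers summed to 195 to 211 in DMSO and 25.8 to 36.2 in AMF, and leukocyte markers, of which LYZ made up nearly all, to 24820 to 25453 and 17597 to 18524. The part of any of these in the changes of NKAIN1 or FXYD2 was not tested.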

How the data were processed

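Libraries of poly(A) RNA from HepG2 were made with a non-directional kit, per the labels' protocols. The submitters' processing notes name STAR 2.7.0, featureCounts and hg19. Which annotation and which normalization were used is not given in the sources used here. Log2 values fill the table the authors deposited, for 30863 genes in 4 libraries. They share a lowest value of 6.01 and have the form of a variance-stabilizing transformation, a form read from the values and not stated in the labels, which was inverted to normalized counts. Divided by the worth of 1 read, 100% of the values were whole within 0.01 reads, with size factors of 0.971 to 1.08.

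Since the unit is log2, no count model was the main test. Limma 3.58.1 in R 4.3.3 was fitted with a trend to log2(normalized count + 1) of 23828 genes whose mean reached 1, with only the group in the model and p-values adjusted by Benjamini-Hochberg. The pseudocount shrinks the change of low genes. Read-ratio intervals are exact binomial, conditional on the sum. Exon lengths and overlaps came from GENCODE release 29 and promoter windows from RefSeq, both on another build than hg19. The members and lists were chosen with earlier results of these data known. In each list the 3 largest rises and 3 largest falls among called genes with a mean of at least 10 are named, and every gene of the list of other subunits. Some genes of the lists are not reported here and were left out of the list counts. Plots used matplotlib 3.10.9 (Python 3.11.15). Alternatives were another pseudocount or filter, library totals, the deposited log2 values, voom, a replicate block and each library left out, and voom without each library was added after seeing the data.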

Additional observations from a re-analysis of the deposited data

How the results depend on the processing

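Each of the 15 alternatives kept the sign of the change of ATP1B1, ATP1B3, FXYD2 and NKAIN1, whose values ran from -0.25 to -0.20, from -0.18 to -0.08, from 0.25 to 0.41 and from 3.69 to 7.46. NKAIN2 turned sign in 4 of 14, between -1.15 and 1.51. ATP1B2 ran from 0.25 to 3.38 and NKAIN4 from -0.96 to -0.07. A kept sign is not a kept call, and calls of the members under the alternatives are not given here.

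Leaving out 1 library with limma-trend gave 0 to 3531 genes past the threshold in place of 7578, and 0 to 23 of the pump-related genes in place of 36. The 0 calls came without AMF replicate 1 and without AMF replicate 2, when 6575 and 6387 genes and 29 and 28 pump-related genes had an unadjusted p under 0.05. The prior degrees of freedom fell there from 11.9 to 0.995 and 1.003. Voom called 7714 genes and 36 pump-related genes with all libraries. Without AMF replicates 1 and 2 voom called 1588 and 1738 genes and 13 and 15 pump-related genes, and without DMSO replicates 1 and 2 it called 6775 and 6574 genes and 34 and 35 pump-related genes.

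Of the 19 list genes named by size, all 19 kept their sign under each alternative. WNK3 was not called with a pseudocount of 0.1, with no filter or on the deposited log2 values. With the replicate number as a block, 8157 genes and 37 pump-related genes passed. The labels give no shared source for a number, and deviations of same-numbered libraries from their group means correlated at 0.0238 over 11137 genes. Depth limits ATP1B2, NKAIN2 and NKAIN4, for which a floor of 3 reads equals 2.79 to 3.09 normalized counts.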
